A study of Homo sapiens with 16 samples.

Results

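The genes described here are 7 members of the fibroblast growth factor (FGF) system, taken by symbol from a table of 23340 named genes: the FGF-binding protein FGFBP1, the receptors FGFR1, FGFR2 and FGFR3, and the ligands FGF1, FGF2 and FGF5. All 7 were measured and all 7 passed the filter on low values, which kept 13570 genes. They were followed in MCF10A, an immortalised, non-tumorigenic human mammary epithelial line, by RNA sequencing of total RNA depleted of ribosomal RNA. The groups were PHF8-overexpressing cells and Mock cells, which carried the empty vector. Within each stock there was an untreated group and a group for each of 3 exposures to TGF-β1 (5 ng/ml), which lasted 24, 48 or 72 h. This gave 8 groups of 2 libraries. All cells grew in medium with epidermal growth factor, cholera toxin, insulin, hydrocortisone and horse serum, so receptor tyrosine kinase ligands were present in every group. PHF8 is a histone lysine demethylase. The sources used here do not say which promoter drove it, whether a stock was a clone or a pool, or whether replicates were separate cultures. P-values therefore measure the spread between these libraries, which may be technical. Per the labels, the first library of every group belongs to round 1 of sequencing and the second to round 2.

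FGFs are secreted proteins that bind heparan sulfate chains at the cell surface and in the matrix. With those chains as a cofactor they pair receptor tyrosine kinases, which signal through the adaptor FRS2 to the RAS and ERK cascade and are held back by Sprouty proteins and dual-specificity phosphatases. Alternative exons in FGFR1, FGFR2 and FGFR3 make IIIb forms, typical of epithelium, and IIIc forms, typical of mesenchyme. In mammary epithelium, IIIb forms receive FGFs made by the stroma. Gene-level values do not separate these forms.

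Expression is given as the deposited log2 value, and differences are on the same log2 scale, so that a difference of 1 is a 2-fold difference. The transformation, which is not named in the sources used here, appears to pull the values of weakly expressed genes towards their mean, so their differences are compressed. PHF8 itself was 13.64 to 14.73 in the 8 PHF8 libraries and 9.26 to 9.72 in the 8 Mock libraries, with no overlap. All 8 listed markers of basal mammary epithelium were expressed, among them KRT5 at 14.35 to 15.64 and TP63 at 9.38 to 11.57. Of 7 luminal markers 5 passed the filter and 1 was listed at 0 in every library. KRT8 had group means of 11.79 to 12.81 and KRT18 of 12.11 to 12.71. FOXA1, GATA3 and ESR1 were lower, with group means of 4.34 to 8.00, and that of KRT19 did not exceed 1.12. Of 8 fibroblast markers only DCN, COL1A1 and COL1A2 passed the filter. PDGFRA did not exceed 2.85, and LUM, THY1 and COL3A1 were below 0 in every library. PDGFRB had group means of 1.82 to 2.62, the highest at PHF8 24 h, where its 2 libraries had an SD of 1.26. LUM also had its highest mean, -0.51, in that group. The summed level of the fibroblast list was 11.92 to 12.98 in the PHF8 libraries of round 1, which stood apart, against 8.91 to 10.88 in the PHF8 libraries of round 2, 9.92 to 10.94 in the Mock libraries of round 1 and 8.33 to 10.95 in those of round 2. DCN, the proteoglycan decorin, made up most of that gap, at 11.57 to 12.82 in PHF8 round 1 and 9.32 to 10.07 in Mock round 1. The same list was also higher in treated than in untreated libraries in Mock cells and in PHF8 cells of round 2. In PHF8 cells of round 1 its sum was 12.34 untreated and 12.98, 12.00 and 11.92 at 24, 48 and 72 h. Over both rounds its summed level was 10.63 to 12.98 in treated and 8.91 to 12.34 in untreated PHF8 libraries. In Mock cells it was 10.24 to 10.95 in treated and 8.33 to 9.92 in untreated libraries. Of its 3 tested genes, COL1A1, a collagen chain, was called at 72 h: it rose by 2.81 in PHF8 cells, at 9.63 against 6.83 untreated (limma, adjusted p = 0.00136), and by 2.72 in Mock cells, at 9.42 against 6.71 untreated (limma, adjusted p = 0.000986). The summed level of the basal list was 17.81 to 18.92 in treated and 16.91 to 17.19 in untreated PHF8 libraries. In Mock libraries it was 18.42 to 18.86 in treated and 17.1 to 17.38 in untreated ones. That of the luminal list was 13.36 to 13.72 in treated and 13.09 to 13.59 in untreated PHF8 libraries. In Mock libraries the luminal sum was 13.5 to 13.7 in treated and 13.27 to 13.49 in untreated ones. The part of these lists in the TGF-β1 differences given here was not tested. In these cultures, fewer cells expressing a gene and less RNA per cell cannot be told apart.

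FGFBP1 is a secreted chaperone that binds FGFs and releases them from heparan sulfate. It was the member with the widest range, from 5.59 to 11.35. At 0, 24, 48 and 72 h its log2 expression was 10.36, 8.36, 5.59 and 5.87 in PHF8 cells of round 1 and 11.23, 8.36, 7.70 and 6.97 in PHF8 cells of round 2. In Mock cells it was 10.80, 6.95, 6.19 and 5.71 in round 1 and 11.35, 7.65, 6.14 and 5.67 in round 2. Every treated library lay below every untreated one: the highest treated value was 8.36 and the lowest untreated value 10.36. Much of the difference was present at 24 h, with differences from untreated of -2.44 in PHF8 cells and -3.78 in Mock cells. By 72 h they were -4.37 ± 0.58 in PHF8 cells, a 20.7-fold difference, and -5.39 ± 0.58 in Mock cells, a 41.9-fold difference (SE of the model, n = 2 per group). The SEs of the TGF-β1 responses given here come from the fit without rounds, so differences between rounds enter them. The PHF8 libraries at 48 h were 5.59 and 7.70, the widest gap between rounds for this gene, while the Mock libraries of the same time were 6.19 and 6.14. FGFBP1 was selected on its 72 h difference in Mock cells in earlier results of these data, and the other members were chosen by family with those results known. For that reason the TGF-β1 responses of all 7 genes are given as a description, with no p-value.

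**Figure D1:**
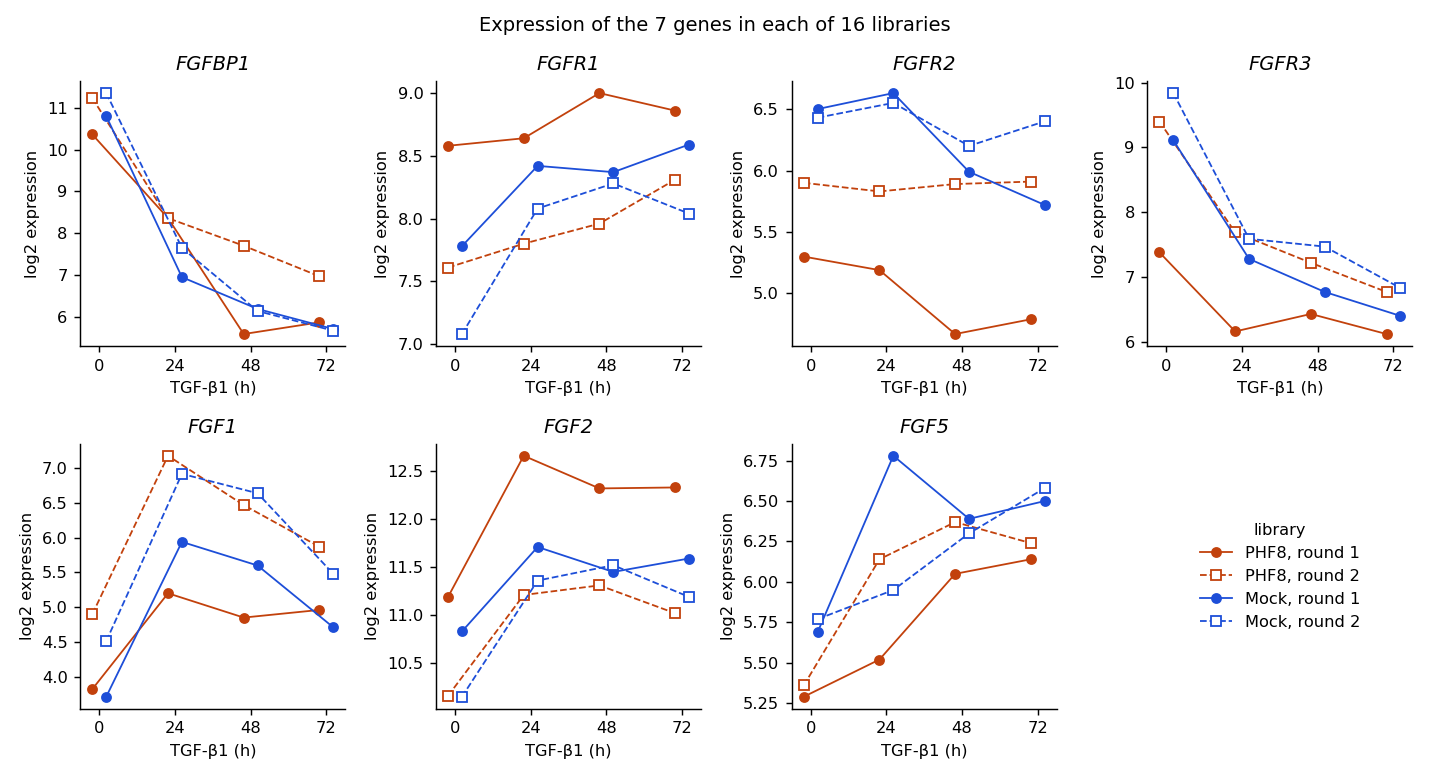
Log2 expression (vertical axes, one scale per gene) of the 7 genes against hours of TGF-β1, with 1 point per library, filled for round 1 and open for round 2, PHF8 in orange and Mock in blue. FGFBP1 and FGFR3 are lower in treated libraries, FGF1 is highest at 24 h in every line, and FGFR2 is lower in PHF8 than in Mock in each round.

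The 3 receptors differed in direction under TGF-β1. FGFR3, a receptor best known as a brake on bone growth and as an oncogene of the bladder epithelium, showed the larger differences. Its values at 0, 24, 48 and 72 h were 7.38, 6.16, 6.43 and 6.12 in PHF8 cells of round 1 and 9.40, 7.69, 7.22 and 6.77 in PHF8 cells of round 2. In Mock cells they were 9.11, 7.28, 6.77 and 6.40 in round 1 and 9.84, 7.59, 7.47 and 6.83 in round 2. All 12 comparisons of a treated library with the untreated library of the same stock and round were negative, from -3.01 to -0.95. At 72 h the mean difference was -1.95 ± 0.64 in PHF8 cells and -2.86 ± 0.64 in Mock cells. The untreated PHF8 libraries differed, at 7.38 in round 1 and 9.40 in round 2, and the PHF8 value moved with them: it was -2.96 without the library of round 1 and -0.935 without that of round 2. The library of round 1 also had DCN at 12.30, against 8.43 in the untreated PHF8 library of round 2; the part of this in the FGFR3 value was not tested.

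FGFR1, the receptor commonly expressed by mesenchymal cells, ran the other way. It was 8.58, 8.64, 9.00 and 8.86 at 0, 24, 48 and 72 h in PHF8 cells of round 1 and 7.61, 7.80, 7.96 and 8.31 in PHF8 cells of round 2. In Mock cells it was 7.78, 8.42, 8.37 and 8.59 in round 1 and 7.08, 8.08, 8.28 and 8.04 in round 2. Each of the 12 same-round differences was positive, from 0.06 to 1.20. The mean difference at 72 h was 0.49 ± 0.43 in PHF8 cells, whose treated and untreated libraries overlapped, and 0.88 ± 0.43 in Mock cells, whose libraries did not. The PHF8 value was 0.007 without the untreated PHF8 library of round 2 and 0.975 without that of round 1, and the Mock value was 0.53 without the untreated Mock library of round 2 and 1.24 without that of round 1. Round 1 libraries were mostly higher than those of round 2, with medians of 8.58 and 8.00, and the range within untreated libraries, 7.08 to 8.58, was wider than any of these differences.

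FGFR2, whose IIIb form is the epithelial receptor for FGF7 and FGF10, showed little response. Its values at 0, 24, 48 and 72 h were 5.30, 5.19, 4.67 and 4.79 in PHF8 cells of round 1 and 5.90, 5.83, 5.89 and 5.91 in PHF8 cells of round 2. In Mock cells they were 6.50, 6.63, 5.99 and 5.72 in round 1 and 6.43, 6.55, 6.20 and 6.40 in round 2. The 72 h differences were -0.25 ± 0.45 in PHF8 cells and -0.41 ± 0.45 in Mock cells, both within the SE, and the lower values at 48 and 72 h were mainly those of round 1.

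Because levels of different genes cannot be set side by side without their lengths, the receptors were compared by the change of their ratio within a library. The log2 ratio of FGFR1 to FGFR3 was higher than in the untreated library of the same stock and round in all 12 comparisons, by 1.28 to 3.97. That direction follows from FGFR1 being higher and FGFR3 lower in the same 12, so only the size is added here. The 12 comparisons reuse 4 untreated libraries. At 72 h the change was 1.54 and 3.33 in the 2 rounds of PHF8 cells and 3.51 and 3.97 in those of Mock cells. It grew from 24 to 48 to 72 h in each of the 4 stock and round series. The ratio of FGFR1 to FGFR2 was also higher in all 12, by 0.17 to 1.59. Such a ratio shows that the receptors changed unequally and nothing about the number of receptors per cell.

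**Figure D2:**
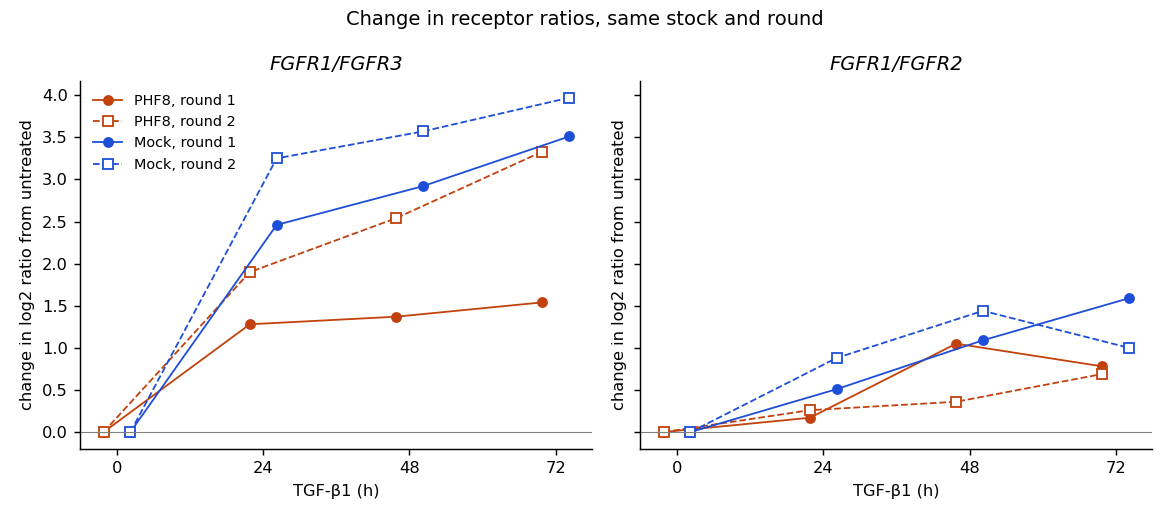
Change in the log2 ratio of FGFR1 to FGFR3 (left) and of FGFR1 to FGFR2 (right) from the untreated library of the same stock and round, against hours of TGF-β1. Points are single libraries, filled for round 1 and open for round 2, and untreated libraries are at 0 by construction; all treated points lie above 0, and the FGFR1 to FGFR3 change reached 3.97 in Mock round 2.

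The 3 ligands were higher after TGF-β1 in all 12 same-round comparisons each. FGF1, the acidic FGF that can bind every FGF receptor form, was 3.82, 5.20, 4.85 and 4.96 at 0, 24, 48 and 72 h in PHF8 cells of round 1 and 4.90, 7.18, 6.47 and 5.87 in PHF8 cells of round 2. In Mock cells it was 3.71, 5.94, 5.60 and 4.71 in round 1 and 4.51, 6.92, 6.64 and 5.48 in round 2. All 4 series were highest at 24 h. The mean differences at 24 h were 1.82 in PHF8 cells and 2.32 in Mock cells, and those at 72 h were 1.05 ± 0.74 in PHF8 cells and 0.98 ± 0.74 in Mock cells. Taken within the same stock and round, the 72 h differences ran from 0.96 to 1.13. Round 2 libraries were higher, with a median of 6.17 against 4.90 in round 1, so that a treated library of round 1 could match an untreated one of round 2.

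FGF2, the basic FGF, lacks a signal peptide and is stored on heparan sulfate in the matrix. It was 11.19, 12.66, 12.32 and 12.33 at 0, 24, 48 and 72 h in PHF8 cells of round 1 and 10.16, 11.21, 11.31 and 11.02 in PHF8 cells of round 2. In Mock cells it was 10.83, 11.71, 11.45 and 11.59 in round 1 and 10.15, 11.36, 11.52 and 11.19 in round 2. The value at 24 h was close to the later ones in each series, and the 72 h differences were 1.00 ± 0.55 in PHF8 cells and 0.91 ± 0.55 in Mock cells. Taken within the same stock and round, they ran from 0.77 to 1.14. FGF2 overlaps NUDT6, a gene on the opposite strand; the library kit keeps strand, but the strand setting of the counting is not given in the sources used here, so their reads cannot be told apart. NUDT6 had 4.81 to 5.82 in the 16 libraries, with 72 h differences of -0.17 in PHF8 cells and -0.24 in Mock cells.

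FGF5, known as the signal that ends hair growth in mammals, had the smallest range of the 7 genes, 5.29 to 6.78. It was 5.29, 5.52, 6.05 and 6.14 at 0, 24, 48 and 72 h in PHF8 cells of round 1 and 5.36, 6.14, 6.37 and 6.24 in PHF8 cells of round 2. In Mock cells it was 5.69, 6.78, 6.39 and 6.50 in round 1 and 5.77, 5.95, 6.30 and 6.58 in round 2. Its 72 h differences were close to each other in all 4 series, from 0.81 to 0.88, with means of 0.86 ± 0.27 in PHF8 cells and 0.81 ± 0.27 in Mock cells. Within each stock, treated and untreated FGF5 libraries did not overlap at any time.

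Ordered by group mean, FGFBP1 and FGFR3 were both highest in the untreated groups (PHF8 10.80 and Mock 11.07 for FGFBP1, PHF8 8.39 and Mock 9.47 for FGFR3), and FGFR1, FGF1, FGF2 and FGF5 were all lowest there. The 2 untreated groups overlapped for each of these genes except FGF5. For FGFBP1 the order from high to low went on through PHF8 24 h (8.36), Mock 24 h (7.30), PHF8 48 h (6.65), PHF8 72 h (6.42), Mock 48 h (6.17) and Mock 72 h (5.69). The libraries of neighbours overlapped from Mock 24 h to Mock 48 h in that order and not elsewhere among the treated groups. For FGFR2 the 4 PHF8 groups, at 5.28 to 5.60, stood below the 4 Mock groups, at 6.06 to 6.59. Neighbours overlapped throughout that order below the 2 highest groups, Mock 24 h and Mock untreated.

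At an adjusted p under 0.05 (limma, Benjamini-Hochberg over 13570 genes), 1 of the 7 members, FGFBP1, was called at 72 h in PHF8 cells, where 9.38% of all genes were called. In Mock cells 2 of 7 were called at 72 h, FGFBP1 and FGFR3, where 14.4% of all genes were. With the sequencing round as a block the counts were 5 of 7 in PHF8 cells, against 23.4% of all genes, and 6 of 7 in Mock cells, against 31.5%. Nothing is read from these counts, since the members were chosen with these comparisons known. Their median difference at 72 h was 0.49 in PHF8 cells and 0.81 in Mock cells, beside 0 over all genes in each.

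The promoter sequences of 3 members are shown because they belong to the member with the largest difference, to the receptor that was lower with it and to a ligand that was higher. RefSeq (GRCh38.p14) gives 1 window for each, running from 250 bases before to 50 bases after the annotated start, printed 5′ to 3′ in the direction of the gene. Capitals mark matches to CAGAC, a short motif bound by SMAD proteins, on either strand. The FGFBP1 window is at chr4:15938691-15938990 on the minus strand, the FGFR3 window at chr4:1793043-1793342 on the plus strand and the FGF2 window at chr4:122826581-122826880 on the plus strand.
FGFBP1: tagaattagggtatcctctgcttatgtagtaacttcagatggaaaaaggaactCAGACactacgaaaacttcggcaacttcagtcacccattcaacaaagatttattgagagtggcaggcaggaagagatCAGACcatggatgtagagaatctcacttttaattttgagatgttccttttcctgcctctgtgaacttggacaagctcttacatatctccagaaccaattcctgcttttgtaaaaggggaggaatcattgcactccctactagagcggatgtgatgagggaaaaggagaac
FGFR3: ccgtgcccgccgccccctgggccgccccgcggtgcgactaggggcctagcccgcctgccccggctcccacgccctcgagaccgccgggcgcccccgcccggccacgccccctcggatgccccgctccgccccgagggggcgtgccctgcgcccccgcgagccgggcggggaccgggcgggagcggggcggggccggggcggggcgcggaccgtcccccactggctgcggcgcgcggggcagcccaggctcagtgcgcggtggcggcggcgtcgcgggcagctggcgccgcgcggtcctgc
FGF2: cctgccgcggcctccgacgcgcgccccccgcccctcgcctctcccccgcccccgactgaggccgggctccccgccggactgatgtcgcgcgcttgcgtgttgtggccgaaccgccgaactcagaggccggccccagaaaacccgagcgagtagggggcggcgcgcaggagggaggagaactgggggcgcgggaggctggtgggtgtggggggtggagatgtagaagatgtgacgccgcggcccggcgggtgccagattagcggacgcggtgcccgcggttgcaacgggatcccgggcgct

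The FGFBP1 window holds 2 CAGAC matches and a GC content of 42%, below the median of 58.7% over 35116 windows. The FGFR3 window has 86.3% GC and the FGF2 window 74.7%, with no match in either. The letters of 5 motifs were searched on both strands: CAGAC, found in 45.3% of all windows, the full SMAD box GTCTAGAC (0.202%), which does not contain CAGAC, the AP-1 site TGANTCA (7.71%), the E-box CAGGTG bound by SNAI and ZEB proteins (20.6%) and the TEAD site GGAATG (14%). None of the other 4 occurs in these 3 windows. RefSeq windows were matched for 6 of the 7 members: 1 each for FGFBP1, FGFR3 and FGF2, 2 for FGF5, 4 for FGF1 and 5 for FGFR2. FGFR1 had none. A match describes these letters in this window and is no evidence of binding.

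The next comparison set PHF8 cells against Mock cells, which asks whether the stock bore on the FGF genes. FGFR2 was lower in PHF8 cells in all 8 comparisons of the same condition and round, with differences of -1.44 to -0.31. Over the 4 conditions it averaged 5.43 in PHF8 cells and 6.30 in Mock cells, a difference of -0.87 ± 0.22 (n = 8 libraries per stock). This missed the threshold in the fit without rounds (limma, adjusted p = 0.0849). With the round as a block it passed, at -0.87 ± 0.15 (limma, adjusted p = 0.00789). It was then 1 of 7 members called, against 9.12% of all genes with the block and 0 of 7 members against 1.69% of all genes without it. The size of the difference varied, at -1.22 in the first round and -0.51 in the second, and the blocked fit holds no term for a stock difference that varies between rounds. Without the PHF8 48 h library of round 2 the unblocked adjusted p was 0.0472 (limma, difference -1.02), and without the PHF8 72 h library of round 2 it was 0.0484 (limma, difference -1.01); leaving out any other library kept it above the threshold, up to 0.205. In round 1, where the FGFR2 gap was wider, the PHF8 libraries also had higher DCN (11.57 to 12.82, against 9.32 to 10.07 in Mock) and lower CDH1, the epithelial cadherin (8.50 to 10.22, against 10.08 to 11.45 in Mock). TP63, a transcription factor of basal epithelium, was 9.38 to 10.26 in PHF8 and 10.84 to 11.19 in Mock in that round, against 11.27 to 11.51 in PHF8 and 11.34 to 11.57 in Mock in round 2. In the endothelial and blood list, 3 of 7 genes were tested and 1 was listed at 0 in every library. Its summed level was 9.76 to 10.27 in PHF8 and 8.63 to 9.42 in Mock in round 1. In round 2 that sum was 9.45 to 9.9 in PHF8 and 8.6 to 9.93 in Mock. Most of it was CD68, with group means of 9.36 to 9.91 in PHF8 cells and 8.38 to 9.46 in Mock cells. KDR followed, at 5.81 to 6.53 in PHF8 and 5.20 to 5.92 in Mock, and PECAM1 did not exceed 4.44 in any group mean. VWF, CDH5 and PTPRC had negative means in every group. In round 2 the mean PHF8 minus Mock difference was -0.51 for FGFR2, which was lower at every time, 0.14 for CDH1 and 0.57 for DCN. The part of DCN, CDH1, TP63 and these markers in the FGFR2 difference was not tested.

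**Figure D3:**
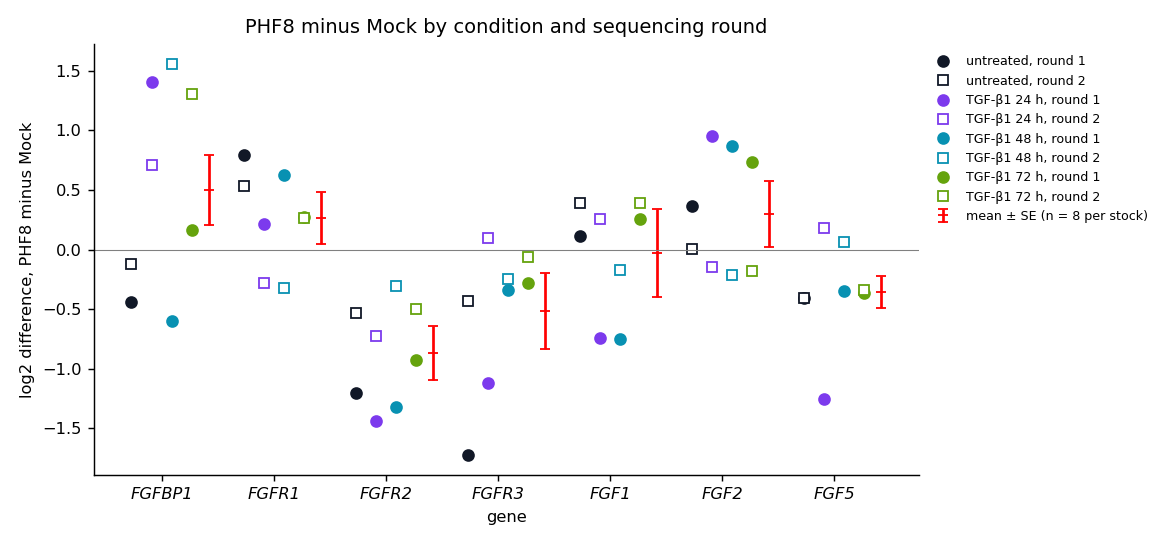
PHF8 minus Mock log2 difference of each gene in each condition, filled for round 1 and open for round 2, with the mean over 4 conditions and its SE in red. All 8 FGFR2 points are below 0, from -1.44 to -0.31, while the points of each other gene fall on both sides of 0.

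None of the other 6 members was called between the stocks over the 4 conditions, in either fit. Their differences were 0.50 ± 0.29 for FGFBP1 (limma, adjusted p = 0.433; with block 0.146), -0.51 ± 0.32 for FGFR3 (adjusted p = 0.467; with block 0.0793) and 0.26 ± 0.22 for FGFR1 (adjusted p = 0.595; with block 0.114). Among the ligands they were -0.36 ± 0.13 for FGF5 (limma, adjusted p = 0.221; with block 0.105), 0.30 ± 0.28 for FGF2 (adjusted p = 0.641; with block 0.208) and -0.03 ± 0.37 for FGF1 (adjusted p = 0.98; with block 0.907). For FGF2 that mean covered opposite signs, 0.73 in round 1 against -0.13 in round 2. No member was called at any single condition either, where the whole table held 1 or 2 called genes per condition (0.00737% to 0.0147%). With the block 0 members were called at a single condition too, against 0.0368% of all genes untreated, 0.0442% at 24 h, 0.0147% at 48 h and 0.0958% at 72 h.

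The response to TGF-β1 was also compared between the stocks. At 72 h the FGFBP1 difference from untreated was smaller in PHF8 cells than in Mock cells by 1.01 ± 0.82, and that of FGFR3 by 0.91 ± 0.90. A joint test over the 3 times gave an adjusted p of 1 for each of the 7 members, with or without the block (limma). It called 0 of 13570 genes without or with the block, with 60 at an unadjusted p under 0.05 without it. Those 60 are far fewer than this threshold gives where no gene differs, so the fit without rounds was conservative here. The errors above are from that fit and count differences between rounds. A different FGF response in the 2 stocks was not detectable by these tests.

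Other genes of the FGF system were read from 6 lists, counted by the same fit at 72 h. Their shares can be set beside those of all genes, 5.22% higher and 4.16% lower in PHF8 cells and 8.28% higher and 6.07% lower in Mock cells. With the block the shares of all genes were 11.7% higher and 11.7% lower in PHF8 cells and 16.4% higher and 15.1% lower in Mock cells. Of 14 tested feedback and target genes, 2 fell in PHF8 cells (0 rose), and 2 fell and 1 rose in Mock cells, with list medians of -0.04 in PHF8 cells and -0.24 in Mock cells beside 0 over all genes. With the block 1 rose and 2 fell in PHF8 cells, and 4 rose and 2 fell in Mock cells. SPRY1, a Sprouty inhibitor of receptor tyrosine kinase signalling, fell by 2.02 in PHF8 cells (SE 0.28, limma, adjusted p = 0.00192) and fell by 2.71 in Mock cells (SE 0.28, adjusted p = 0.000203). Its treated libraries were 3.13 to 4.19 in PHF8 cells and 2.96 to 3.65 in Mock cells, all below the untreated ones, which were 5.64 and 6.05 in PHF8 cells and 5.89 and 6.18 in Mock cells. SPRY2, a close relative, fell by 0.55 in PHF8 cells (limma, adjusted p = 0.0393) and fell by 0.90 in Mock cells (adjusted p = 0.0026). SPRY4 had a difference of 0.37 in PHF8 cells (limma, adjusted p = 0.296; with block 0.0385) and rose by 0.67 in Mock cells (adjusted p = 0.0436). Members of one family thus changed in both directions. No other tested gene of this list passed without the block in either stock. DUSP6, an ERK phosphatase, had -0.57 in PHF8 cells and -0.55 in Mock cells. The transcription factor ETV4 had -0.06 in PHF8 cells and -0.39 in Mock cells, and its relative ETV5 had 0.19 and 0.14. For the Sprouty-related SPRED3 the values were 0.54 in PHF8 cells and 0.90 in Mock cells. SPRED3 passed with the block in Mock cells (limma, adjusted p = 0.041). The SPRY2 call in PHF8 cells was lost on leaving out any 1 of 12 libraries (adjusted p up to 0.253, difference -0.45 without the untreated PHF8 library of round 2), and the SPRY4 call in Mock cells on leaving out any 1 of 6 (adjusted p up to 0.194).

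**Figure D4:**
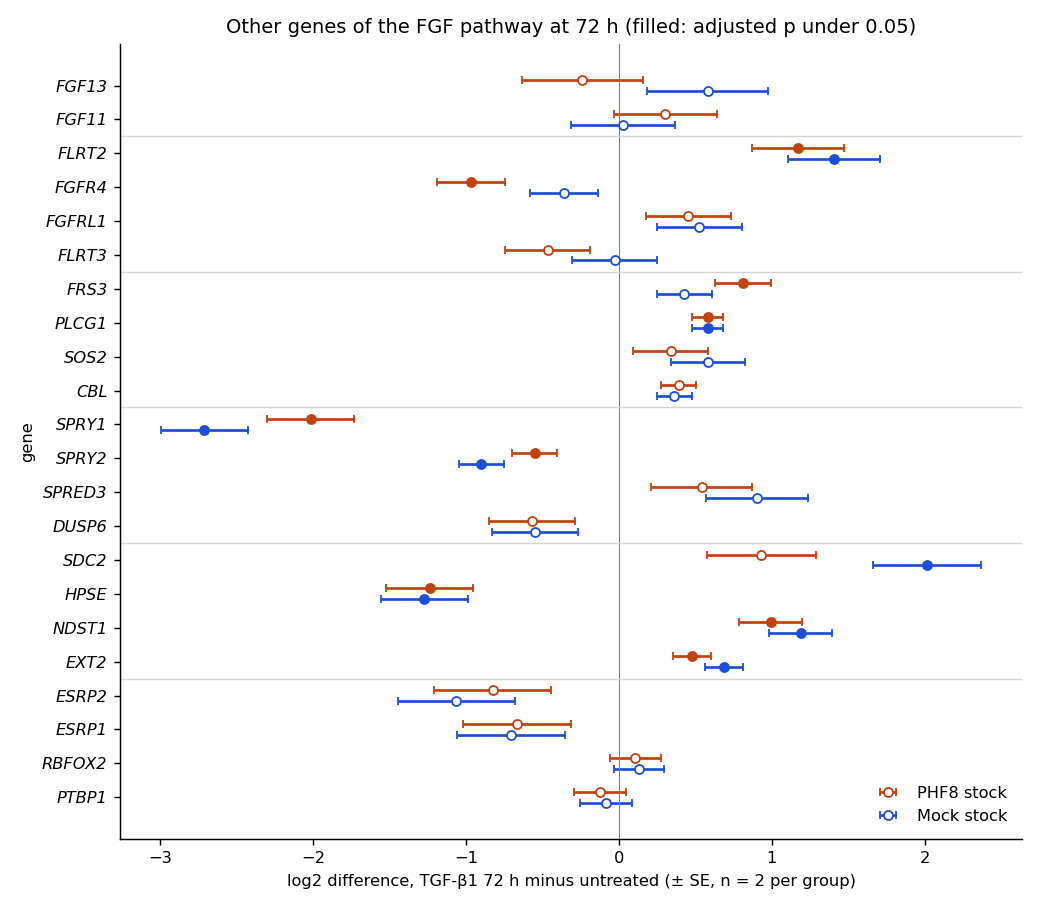
Log2 difference at 72 h of TGF-β1 from untreated (± SE, n = 2 libraries per group) for the genes named from the 6 lists, PHF8 in orange above Mock in blue, filled where the adjusted p of limma was under 0.05. SPRY1 lies far to the left in both stocks, at -2.02 in PHF8 and -2.71 in Mock, and SDC2 lies to the right, open at 0.93 in PHF8 and filled at 2.02 in Mock.

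In the list of heparan sulfate genes, whose chains FGFs need as a cofactor and from which FGFBP1 releases them, 2 of 21 tested genes rose and 1 fell in PHF8 cells, and 4 rose and 1 fell in Mock cells. With the block 4 rose and 3 fell in PHF8 cells, and 8 rose and 2 fell in Mock cells. NDST1, which starts the sulfation of the chains, rose by 0.99 in PHF8 cells (limma, adjusted p = 0.0122) and by 1.19 in Mock cells (adjusted p = 0.00331). EXT2, a subunit of the chain polymerase, rose by 0.48 in PHF8 cells (limma, adjusted p = 0.0338) and by 0.69 in Mock cells (adjusted p = 0.00407). HPSE, heparanase, which cuts the chains, fell by 1.24 in PHF8 cells (limma, adjusted p = 0.021) and fell by 1.27 in Mock cells (adjusted p = 0.0126). The syndecan SDC2, a membrane proteoglycan, had a difference of 0.93 in PHF8 cells (limma, adjusted p = 0.133), which did not pass. It rose by 2.02 in Mock cells (limma, adjusted p = 0.00378), where it was 5.15 and 5.38 at 72 h and 3.18 and 3.31 untreated. The remaining increase in Mock cells was GLCE, an epimerase of the chains, named here after its value was seen (0.39, limma, adjusted p = 0.042). SDC1, the main epithelial syndecan, was at 0.05 in PHF8 cells and 0.15 in Mock cells, and neither endosulfatase passed: SULF1 had -0.17 in PHF8 cells and 0.64 in Mock cells, and SULF2 -0.40 in PHF8 cells and -0.44 in Mock cells. In PHF8 cells the NDST1 call was lost without the untreated library of round 2 (limma, adjusted p = 0.124, difference 0.76) or either 72 h library (0.0633 and 0.0741), and the HPSE call without the untreated library of round 1 (0.124) or the 72 h library of round 2 (0.146). In Mock cells the HPSE call was lost without either untreated library (limma, adjusted p = 0.0644 and 0.0685) or the 72 h library of round 1 (0.111). The EXT2 call was lost without 1 library in Mock cells, the untreated one of round 2 (0.0533), and without any 1 of 6 libraries for PHF8 cells (up to 0.233).

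Among 5 tested genes of other receptors and binding proteins, 1 rose and 1 fell in PHF8 cells and 1 rose in Mock cells. With the block 2 rose and 1 fell in PHF8 cells, and 2 rose and 0 fell in Mock cells. FLRT2, a membrane protein of a family that binds FGF receptors, rose by 1.17 in PHF8 cells (limma, adjusted p = 0.0337) and by 1.404 in Mock cells (adjusted p = 0.0103). FLRT3 had -0.46 in PHF8 cells and -0.03 in Mock cells and did not pass. FGFR4, the receptor that serves FGF19 in liver, fell by 0.97 in PHF8 cells (limma, adjusted p = 0.0206) and had -0.36 in Mock cells (adjusted p = 0.319). FGFRL1, a receptor with no kinase domain, had 0.45 in PHF8 cells and 0.53 in Mock cells and passed only with the block (limma, adjusted p = 0.024 in PHF8 cells and 0.00906 in Mock cells). FGFBP2 and the co-receptor KL were listed at 0 in every library. The FGFR4 call was lost without either untreated PHF8 library (0.073 and 0.112) or the PHF8 72 h library of round 1 (0.161), all as limma adjusted p. The FLRT2 call was lost without any 1 of 5 libraries for PHF8 cells (limma, adjusted p up to 0.224, difference 0.80) and of 3 for Mock cells (up to 0.0962), both untreated and treated ones among them.

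All 10 adaptors and effectors that act directly at the receptors were tested; 2 rose in PHF8 cells and 1 in Mock cells, and 0 fell. With the block 4 rose in PHF8 cells and 3 in Mock cells, and 0 fell. PLCG1, the phospholipase that binds activated FGF receptors, rose by 0.58 in PHF8 cells (SE 0.10, limma, adjusted p = 0.00596) and by 0.58 in Mock cells (SE 0.10, adjusted p = 0.00382). FRS3, an adaptor related to FRS2, rose by 0.81 in PHF8 cells (limma, adjusted p = 0.0184) and had 0.43 in Mock cells (adjusted p = 0.144). That FRS3 call was lost without either untreated PHF8 library (limma, adjusted p = 0.0757 and 0.0864) or the PHF8 72 h library of round 2 (0.142). The exchange factor SOS2 had 0.34 in PHF8 cells and 0.58 in Mock cells, and the ubiquitin ligase CBL 0.39 in PHF8 cells and 0.36 in Mock cells; neither passed without the block and both did with it. Of the 19 other FGF ligands, 8 were listed at 0 in every library and only FGF11 and FGF13, which act inside the cell, passed the filter. FGF11 had 0.30 in PHF8 cells and 0.03 in Mock cells at 72 h, and FGF13 had -0.24 in PHF8 cells and 0.58 in Mock cells, none past the test.

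The last list held 4 regulators of the FGFR2 exon choice. ESRP1 and ESRP2, epithelial splicing proteins that favour the IIIb form, had 72 h differences of -0.67 and -0.82 in PHF8 cells and of -0.71 and -1.06 in Mock cells, which did not pass (limma, adjusted p from 0.089 to 0.284). With the block ESRP1 passed in both stocks (limma, adjusted p = 0.0452 in PHF8 cells and 0.0287 in Mock cells) and ESRP2 in Mock cells (0.0252). RBFOX2 had 0.11 in PHF8 cells and 0.13 in Mock cells, and PTBP1 -0.12 in PHF8 cells and -0.08 in Mock cells. Between the stocks ESRP1 was higher in PHF8 cells, at 6.47 to 7.82 against 5.88 to 7.00 in Mock cells, by 0.99 ± 0.18 over the 4 conditions (limma, adjusted p = 0.022). The 2 rounds gave 0.92 and 1.06, so that ESRP1 was higher where FGFR2 was lower in both rounds. SULF1 was the other gene of the 6 lists called between the stocks without the block. It was higher in PHF8 cells by 1.64 ± 0.31 (limma, adjusted p = 0.0298), and the rounds gave 2.52 and 0.75. With the block 3 of 21 heparan sulfate genes were higher and 4 lower, against 9.12% of all genes called. Of 14 feedback genes 1 was higher and 2 were lower, and of 5 other receptor genes 1 was lower. Of the markers, 1 of 3 tested fibroblast genes was higher without the block (2 with it), against 1.69% of all genes called. COL1A2 had group means of 2.28 to 4.58 in PHF8 cells and 2.11 to 2.75 in Mock cells. COL1A1 had 6.83 to 10.03 in PHF8 cells and 6.71 to 10.06 in Mock cells. DCN had 10.37 to 11.10 in PHF8 cells and 8.73 to 9.37 in Mock cells, with an SD of 2.74 in the untreated PHF8 group. In the endothelial and blood list 1 of 3 was higher in either fit, and 1 of 5 luminal genes was lower with the block. The ESRP1 call was lost on leaving out any 1 of 6 libraries (limma, adjusted p up to 0.0703) and the SULF1 call any 1 of 10 (up to 0.0887).

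The genes whose values most resembled those of each member over the 16 libraries were found among 5490 tested genes with a range of at least 1 log2 unit. These libraries share stocks, treatments and rounds, and the correlations are given as a description. FGFBP1 was most like S100A8, a calcium-binding alarmin (r = 0.977), ACOX2, a peroxisomal oxidase (0.973), SLC25A23, a mitochondrial carrier (0.970), GDF15, a stress-induced cytokine (0.965), and DBNDD1 (0.963). Most opposite to it were SLIT3, a secreted guidance cue (r = -0.975), CCBE1 (-0.967) and SRPX (-0.964). FGFR3 was most like LTB4R, a leukotriene receptor (r = 0.960), PLS1, an actin bundler of microvilli (0.958), and the clock gene PER2 (0.957). FGFR2 was most like LAD1, a basement membrane protein (r = 0.935), PNLIPRP3 (0.934) and the ephrin receptor EPHB3 (0.930). FGFR1 went with IKBKG (r = 0.943), PRKCDBP (0.937) and ATP6V0A4 (0.933). Among ligands, FGF1 went with TLR6 (r = 0.950) and USP43 (0.947), FGF2 with SERTAD1 (0.964), STX2 (0.963) and SEL1L (0.959), and FGF5 with CTSL2 (0.899), TMEM98 (0.894) and MYH9 (0.894), which was the weakest likeness of the 7.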

How the data were processed

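The members and gene lists were chosen with earlier results of these data known. Per the labels' protocols, libraries were made with a stranded kit after ribosomal depletion and sequenced as paired 50-base reads. Per the submitters' processing notes, TopHat2 2.0.13, featureCounts, Subread 1.4.6, DESeq2 (no version given) and the build hg19 were used. The authors deposited log2 expression per gene and library; the base was settled from the sums of 2 raised to the value, and the transformation is not named. Without read counts, the depth behind each value is unknown and no counting interval is given. Another 4 columns of values matched no sample and were not used.

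Of 23368 entries, 28 had symbols turned into dates and were left out, and 4064 were at 0 throughout. Genes were tested where 2 raised to the value reached 10 in at least 2 libraries. No pseudocount was added. limma 3.58.1 in R 4.3.3, with a mean-variance trend, was fitted to 8 group means over all 16 libraries (8 residual degrees of freedom), and p-values were adjusted by Benjamini-Hochberg within each comparison. Standard errors are the model's, from the fit without the block unless the block is named, so differences between rounds enter them. The alternatives were a term for the replicate number, which per the labels is the sequencing round, as a block (7 degrees of freedom), no filter, no trend, libraries shifted to one median, and leaving out each library. Differences between rounds correlated between groups at 0.207 to 0.749 (28 pairs of groups, median 0.461), and the labels tie the number to a round, so it was taken to pair the libraries. The scripts were tested on simulated data.

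Named by rule were the 7 members, up to 4 genes of each list with the largest mean 72 h difference, 12 further list genes (SPRY2, SPRY4, DUSP6, ETV4, ETV5, ESRP1, ESRP2, FGFRL1, FGFR4, SDC1, SULF1 and SULF2), and for each member the 3 genes with the highest Pearson correlation (for FGFBP1 the 5 highest and 3 lowest). One gene that this rule names is not reported here. Motifs were searched in RefSeq promoter windows of GRCh38.p14.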

Additional observations from a re-analysis of the deposited data

Results flagged for a closer look

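FGFR2 at 24 h of TGF-β1 went in opposite directions in the stocks: both PHF8 libraries were below their untreated library of the same round (mean difference -0.086) and both Mock libraries above theirs (mean difference 0.124). The test of the difference between the stocks in the fit without rounds gave -0.21 ± 0.63 (limma, adjusted p = 1). The opposite signs lay well within that error, which includes differences between rounds. Groups of 2 libraries were too small to look for outlying libraries.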

How the results depend on the processing

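With the replicate block, TGF-β1 against untreated called 3974, 3824 and 3175 genes at 24, 48 and 72 h in PHF8 cells (1590, 1710 and 1273 without it) and 4865, 4741 and 4275 in Mock cells (2349, 2348 and 1948 without it). PHF8 against Mock called 5 genes untreated, 6 at 24 h, 2 at 48 h, 13 at 72 h and 1237 over the 4 conditions (1, 1, 1, 2 and 229 without it). With no filter on low values the untreated comparison called 4. Leaving out 1 library at a time gave 329 to 1702, 567 to 1725 and 393 to 1267 genes at 24, 48 and 72 h in PHF8 cells, 650 to 2398, 792 to 2301 and 619 to 1957 in Mock cells, 60 to 286 between the stocks over 4 conditions, 1 to 2 at 72 h and 1 in each of the other conditions; the joint test of response kept 0. The lowest counts came without the untreated library of round 2 of the stock concerned, and for the stocks without the PHF8 72 h library of round 1.

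The member differences at 72 h and between stocks kept their direction under the block, without the filter, without the trend and with libraries shifted to one median. Signs changed on leaving out 1 library for the FGFR2 72 h difference in PHF8 cells (-0.80 to 0.31) and for FGF1 between stocks (-0.28 to 0.22). Among list genes at 72 h they changed in PHF8 cells for ETV4 (-0.47 to 0.36), FGF13 (-0.54 to 0.063), SDC1 (-0.29 to 0.40), SULF1 (-0.84 to 0.49) and SULF2 (-1.19 to 0.39), and in Mock cells for FGF11 (-0.25 to 0.30), FLRT3 (-0.29 to 0.23), PTBP1 (-0.26 to 0.093), RBFOX2 (-0.044 to 0.31), SULF1 (-0.02 to 1.29) and SULF2 (-1.004 to 0.12); the cause was not tested. The FGFR3 call in Mock cells was lost without the untreated library of round 2 (-2.49), the 72 h library of round 1 (-2.64) or that of round 2 (-3.07). Where a group was left with 1 library, it was assumed to vary like the others. SPRY2 in PHF8 cells and SPRY4 in Mock cells lost their calls without the filter (limma, adjusted p = 0.0512 and 0.0577), SPRY4 in Mock cells and EXT2 in PHF8 cells without the trend (0.0547 and 0.0566), and CBL passed with libraries shifted to one median (0.0416 in PHF8 cells and 0.0479 in Mock cells). With 2 libraries per group and unknown depth, small differences of weakly expressed genes were not detectable here.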
